A study of Mus musculus with 4 samples.

Results

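The platelet-derived growth factor (PDGF) genes were followed through the lungs of bleomycin-treated mice that lacked or carried Tubb3, the gene of β-III tubulin. All 7 listed genes were taken, out of 32286 genes counted in the files: the ligand genes Pdgfa, Pdgfb, Pdgfc and Pdgfd, the receptor genes Pdgfra and Pdgfrb, and Pdgfrl, which encodes a receptor-like protein. The members are set by gene name. Single-cell RNA sequencing had been done on 2 wild-type (WT) and 2 Tubb3-/- mice, littermates aged 8 to 11 weeks, 14 days after intratracheal bleomycin at 0.8 U/kg. The study used both sexes outside its hydroxyproline assay, and the sex of each of these 4 mice is not given. The Tubb3-/- mice were homozygous for a Cre cassette placed at the start codon of Tubb3 in the germline. All 4 mice had received bleomycin, and no uninjured lung was among them, so no value below measures the response to injury. Cells of each mouse were tagged, and the 4 mice were then pooled before sorting, in 2 pools. The first held whole lung cells without erythrocytes. The other held mesenchymal cells depleted of CD31+, CD45+ and EpCAM+ cells. In it, sorted MCAM+ PDGFRα- mural cells were mixed in equal parts with MCAM- cells, over all 4 mice together. Below, a library means the cells of 1 mouse in 1 pool, told apart by their tags.

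PDGF ligands are secreted dimers that bind and dimerize a pair of receptor tyrosine kinases, PDGFRα and PDGFRβ, which signal through phosphoinositide 3-kinase, phospholipase C gamma and the Ras pathway. PDGF-AA and PDGF-CC act mainly through PDGFRα and PDGF-BB through both receptors, while PDGF-DD prefers PDGFRβ. PDGF-C and PDGF-D must first be cut by proteases. In the lung, epithelial PDGF-A is needed for the PDGFRα+ fibroblasts that build alveoli, and endothelial PDGF-B recruits the PDGFRβ+ pericytes that cover capillaries.

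Unique molecular identifiers (UMIs), each counting 1 captured RNA molecule, were summed over the cells of a lineage in each mouse, with both libraries added, and expressed per 1000000 UMIs of that sum (CPM). A cell was placed in a lineage by at least 1 UMI of Ptprc (immune), Cdh5 (endothelial), Epcam (epithelial), Msln (mesothelial), Higd1b (pericyte) or Inmt, Pi16 or Cthrc1 (fibroblast), or at least 3 UMIs of Myh11 (smooth muscle). The libraries held 3202 to 5051 cells and 41462258 to 95036340 UMIs each. Of 30092 cells kept, 15415 matched 1 lineage, which left 6704 fibroblasts, 3838 immune, 2121 smooth muscle, 2072 endothelial, 326 mesothelial, 263 epithelial cells and 91 pericytes. A further 13872 cells (46.1%) matched several gates and were dropped. At gates of 3 to 10 UMIs, the higher gates below, 1113 cells (3.70%) matched several gates and 425 pericytes were left. There 5656 cells (18.8%) matched no gate, against 805 (2.68%) at the gates above. A cell that passed both the Higd1b and Myh11 gates counted as a pericyte at the higher gates, while the gates above dropped it. The higher-gate pericytes are thus also defined differently. Tubb3 stood at 0.868 to 5.49 CPM in the 4 WT libraries and at 0.262 to 0.789 CPM in the 4 Tubb3-/- libraries. Of 35 marker genes that formed no gate, 33 were highest in their own lineage. The exceptions were Dcn, a fibroblast marker highest in the mesothelial cells, and Krt19, a mesothelial marker highest in the epithelial cells.

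The members were spread over the lineages in different ways (the plot of levels by lineage). Of 147 comparisons between 2 lineages (7 genes, 21 pairs), 117 passed an adjusted p of 0.05 (edgeR quasi-likelihood fit with the mouse as a block, p-values adjusted by Benjamini and Hochberg's method across the genes of each contrast). Over all genes tested, 49.4% of such comparisons passed. All 21 pairs differed for Pdgfa, against 19 for Pdgfd, 18 for Pdgfrb, 16 for Pdgfc, 15 for Pdgfb, and 14 each for Pdgfra and Pdgfrl. Between neighbours in the order of a gene's levels, 17 of 42 steps did not pass. Fold changes below come from these fits, in which libraries were scaled by the trimmed mean of M values (TMM), so they can differ from ratios of CPM. Positions are from the GENCODE vM21 annotation of GRCm38. The antisense genes 6330403L08Rik, Gm41361, Gm16000 and Gm42802 overlap Pdgfa, Pdgfb, Pdgfc and Pdgfra, and Ddi1 lies on the strand opposite Pdgfd. How strand was used in counting is not given in the sources used here, so reads of each pair cannot be told apart. Gates of 1 UMI admit cells that carry stray molecules, and levels of a few CPM are given without reading them as expression.

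**Figure D1:**
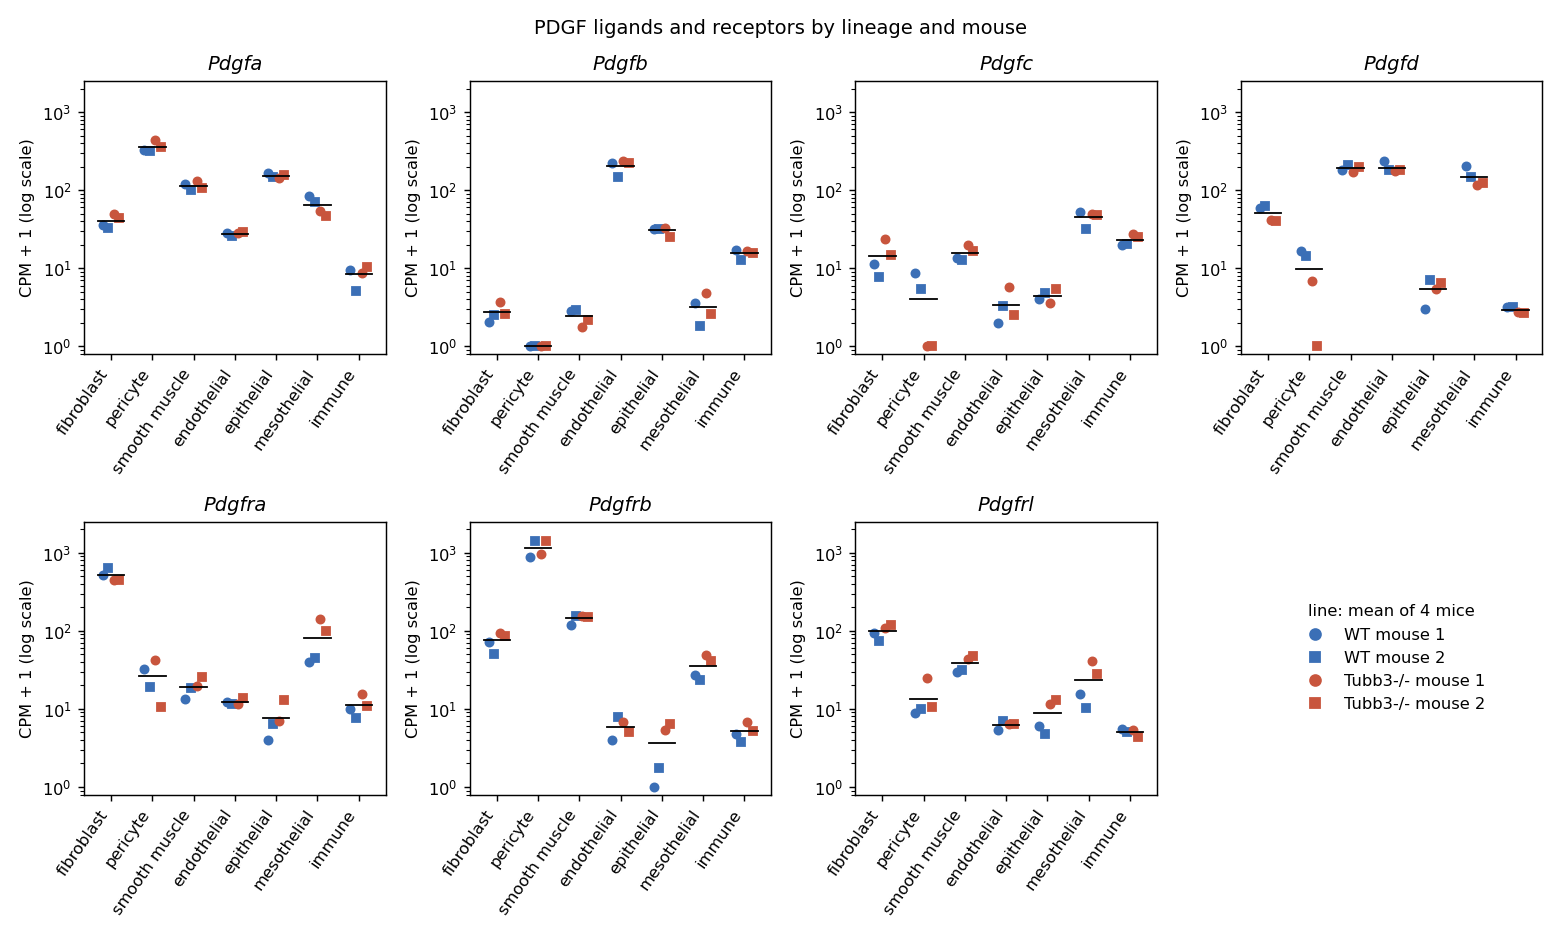
CPM + 1 on a log scale (y axis) of each of the 7 genes in 7 lineages (x axis), 1 point per mouse (blue WT, red Tubb3-/-) and a line at the mean of the 4 mice. Pdgfrb peaked in pericytes (mean 1168 CPM), Pdgfra in fibroblasts (515 CPM), Pdgfb in endothelial cells (205 CPM), and Pdgfd stood at 146 to 191 CPM in endothelial, smooth muscle and mesothelial cells.

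Pdgfa (chr5:138976014-138997370, minus strand, GRCm38), which encodes the PDGF-A chain, was highest in pericytes. Their levels were 326 and 318 CPM in the WT mice and 441 and 352 CPM in the Tubb3-/- mice, a mean of 359 ± 56.6 CPM (SD, n = 4). Epithelial cells came next at 165 and 144 CPM in the WT mice and 141 and 154 CPM in the Tubb3-/- mice, 1.99-fold lower than pericytes on the fitted scale (log2 0.99, SE 0.19, adjusted p = 0.00012 by edgeR). In both lineages all 4 mice lay far above the fibroblasts, at 35.0 and 31.4 CPM in the WT mice and 48.5 and 43.5 CPM in the Tubb3-/- mice. Smooth muscle cells were intermediate, at 99.8 to 129 CPM over the 4 mice, followed by mesothelial cells at 45.3 to 83.9 CPM, fibroblasts, endothelial cells at 24.5 to 27.9 CPM and immune cells at 4.15 to 9.37 CPM. Each of these steps passed the test, but 2 of them lost the call under alternatives. The step from epithelial to smooth muscle cells ended at -0.17 at the higher gates (adjusted p = 0.30) and at 0.18 to 0.29 without WT mouse 1, WT mouse 2 or Tubb3-/- mouse 2 (adjusted p = 0.20 to 0.36), and the step from mesothelial cells to fibroblasts at 0.15 to 0.19 without either WT mouse (adjusted p = 0.52 to 0.57). The pericyte values rest on 91 cells and 224 UMIs of Pdgfa, and at the higher gates 425 pericytes stood at 304 to 422 CPM. Shares after thinning to 2000 UMIs, here and below, are expected values over cells with at least 2000 UMIs, shallower cells being left out. When each cell was thinned in this way, 40.8% to 53.9% of pericytes, 17.3% to 21.6% of smooth muscle cells and 21.3% to 25.5% of epithelial cells kept a Pdgfa UMI, against 0.623% to 1.27% of immune cells.

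Within the epithelial gate, Pdgfa was highest in cells with a UMI of Rtkn2, a gene of alveolar type 1 cells. With the 4 mice summed, 46 Rtkn2+ cells held 374 CPM, 61 cells with Lamp3, a gene of alveolar type 2 cells, held 65.7 CPM, and 21 cells with Cyp2f2, a gene of club cells, held 34.9 CPM (the plot of ligands within lineages). In the Rtkn2+ cells the mice stood at 492 and 417 CPM in the WT mice and 210.0 and 391 CPM in the Tubb3-/- mice. The lowest of these 4 values was above the highest of Lamp3+ cells, 39.1 to 74.8 CPM. These gates hold few cells and were not tested.

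Pdgfb (chr15:79995874-80014977, minus strand), which encodes the PDGF-B chain that binds both receptors, was highest in endothelial cells. They held 219 and 144 CPM in the WT mice and 235 and 220.1 CPM in the Tubb3-/- mice, the WT mouse 2 being the lowest. The next lineage, epithelial, held 31.0 and 30.7 CPM in the WT mice and 32.2 and 23.9 CPM in the Tubb3-/- mice, 6.47-fold lower (log2 2.69, SE 0.19, edgeR adjusted p = 1.58e-11). Immune cells stood at 11.8 to 16.4 CPM, and mesothelial cells, fibroblasts and smooth muscle cells at 0.759 to 3.85 CPM between them. No Pdgfb UMI was found among 625239 UMIs of the pericytes. That count of 0 allows up to 4.80 CPM (3 counts over the group, counting error only), so the pooled endothelial level of 209 CPM was at least 43.5-fold higher. After thinning to 2000 UMIs, 22.7% to 36.1% of endothelial cells and 0.252% to 0.407% of fibroblasts kept a Pdgfb UMI.

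Within the endothelium, Pdgfb levels ranged from 25.7 to 333 CPM between gates, a description with no test. Cells with a UMI of Ednrb, a gene of the capillary cells called aerocytes, held 388 and 299 CPM in the WT mice and 329 and 326 CPM in the Tubb3-/- mice, over 115 cells. The 1275 cells with Gpihbp1, a gene of general capillary cells, held 207 and 135 CPM in the WT mice and 243 and 229.7 CPM in the Tubb3-/- mice. In every mouse the Ednrb+ value was the higher of the 2. Pooled over mice, 23 cells with the arterial gene Gja5 held 90.7 CPM, 18 cells with the venous gene Slc6a2 held 67.2 CPM and 19 cells with the lymphatic gene Prox1 held 25.7 CPM, gates too small to place against each other. Among immune cells, Pdgfb stood at 39.6 CPM in 232 cells with C1qa, a macrophage gene, and at 41.7 CPM in cells with Ncr1, a natural killer cell gene.

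**Figure D2:**
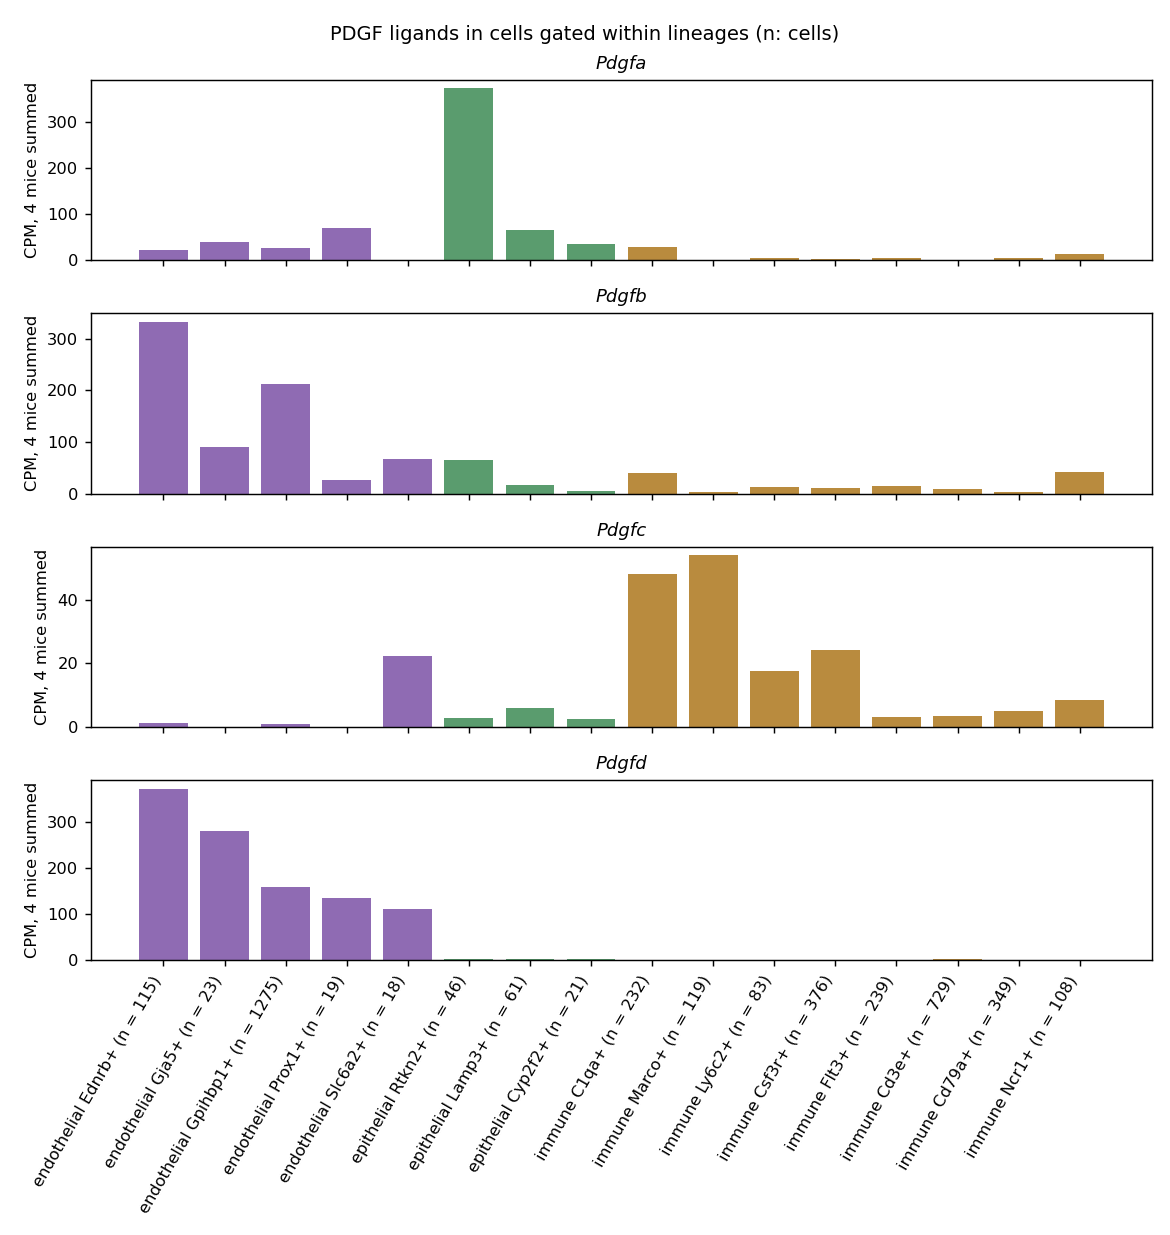
CPM with the 4 mice summed (y axis, linear from 0) of the 4 ligand genes in cells gated by 1 further gene within the endothelial (purple), epithelial (green) and immune (brown) lineages (x axis, with the number of cells). Pdgfa stands out in Rtkn2+ epithelial cells (374 CPM), Pdgfb in Ednrb+ endothelial cells (333 CPM), Pdgfc in Marco+ and C1qa+ immune cells (54.0 and 48.0 CPM) and Pdgfd in Ednrb+ and Gja5+ endothelial cells (373 and 281 CPM).

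The CUB-domain ligands Pdgfc and Pdgfd are both made as latent chains, Pdgfc at its highest in mesothelial cells and Pdgfd in endothelial and smooth muscle cells. The bases upstream of their start sites are shown with those of Pdgfra, the gene that marks fibroblasts. The windows are the 250 bases before the RefSeq start of each gene on GRCm38.p6, plus strand in all 3 cases: chr3:81036166-81036415 for Pdgfc, chr9:6168236-6168485 for Pdgfd and chr5:75152001-75152250 for Pdgfra. Capitals mark the motif letters found by a search of both strands for the letters of a TATA box, TATAAA, of a GC box, GGGCGG, of an AP-1 site, TGANTCA, and of a TEAD site, GGAATG.
Pdgfc: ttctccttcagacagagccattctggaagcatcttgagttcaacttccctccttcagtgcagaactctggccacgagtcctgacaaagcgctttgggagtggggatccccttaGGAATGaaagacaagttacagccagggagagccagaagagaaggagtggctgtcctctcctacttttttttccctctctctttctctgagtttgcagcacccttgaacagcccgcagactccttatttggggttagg
Pdgfd: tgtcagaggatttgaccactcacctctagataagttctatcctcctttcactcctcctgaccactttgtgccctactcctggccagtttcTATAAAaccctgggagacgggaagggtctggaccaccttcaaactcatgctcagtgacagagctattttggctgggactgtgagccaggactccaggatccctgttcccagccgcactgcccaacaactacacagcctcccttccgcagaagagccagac
Pdgfra: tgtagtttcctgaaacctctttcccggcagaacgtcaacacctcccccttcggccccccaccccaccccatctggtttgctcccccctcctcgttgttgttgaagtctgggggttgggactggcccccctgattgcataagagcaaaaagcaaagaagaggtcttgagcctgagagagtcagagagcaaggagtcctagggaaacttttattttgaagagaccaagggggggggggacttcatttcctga
The Pdgfc window held 1 GGAATG, the Pdgfd window held 1 TATAAA, and none of the 4 motifs was in the Pdgfra window. Over 32851 promoter windows of the same length, TATAAA was in 12.4%, GGGCGG in 32.7%, TGANTCA in 6.75% and GGAATG in 12.6%, so each match is common and describes letters only. Binding was not measured.

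Pdgfc (chr3:81036416-81214040, plus strand), which encodes the PDGF-C chain, a PDGFRα ligand, was highest in mesothelial cells, at 51.1 and 31.0 CPM in the WT mice and 48.1 and 46.9 CPM in the Tubb3-/- mice. Immune cells followed at 18.6 and 19.5 CPM in the WT mice and 26.6 and 24.2 CPM in the Tubb3-/- mice, a mean 1.55-fold lower on the fitted scale (log2 0.64, SE 0.21, edgeR adjusted p = 0.0093). That step was not called at the higher gates (log2 0.17, adjusted p = 0.62) or without WT mouse 1 (log2 0.49, adjusted p = 0.091). Smooth muscle cells, at 11.9 to 18.8 CPM, and fibroblasts, at 6.67 to 22.9 CPM, overlapped, and the step between them did not pass (log2 0.18, SE 0.19, edgeR adjusted p = 0.45). Epithelial cells, endothelial cells and pericytes had means of 3.45, 2.35 and 3.06 CPM. In the immune gate the transcript was highest in cells with macrophage genes, at 54.0 CPM in 119 Marco+ cells and 48.0 CPM in 232 C1qa+ cells. The 376 cells with the neutrophil gene Csf3r held 24.3 CPM, and the 729 cells with the T cell gene Cd3e held 3.42 CPM.

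Pdgfd (chr9:6168584-6378850, plus strand), which encodes the PDGF-D chain, a PDGFRβ ligand, was high in 3 lineages. Endothelial cells held 232 and 179.7 CPM in the WT mice and 175 and 178 CPM in the Tubb3-/- mice. Smooth muscle cells held 179.9 and 209 CPM in the WT mice and 169 and 198 CPM in the Tubb3-/- mice. The means, 191 ± 27.5 and 189 ± 18.2 CPM (SD, n = 4), were close, and the difference did not pass (log2 -0.09, SE 0.12, edgeR adjusted p = 0.52). In the whole-cell libraries alone the endothelial level was higher (log2 0.49, adjusted p = 0.022), and at the higher gates it was lower (log2 -0.35, adjusted p = 0.031). Mesothelial cells held 200.5 and 147 CPM in the WT mice and 114 and 123 CPM in the Tubb3-/- mice, and fibroblasts were 2.64-fold lower again, at 57.6 and 62.2 CPM in the WT mice and 40.6 and 38.9 CPM in the Tubb3-/- mice (log2 1.40, SE 0.13, edgeR adjusted p = 1.57e-09). Pericytes, at 0 to 15.5 CPM, lay far below smooth muscle cells. Within the endothelium, pooled levels were 373 CPM in Ednrb+ cells, 281 CPM in Gja5+ cells and 159 CPM in Gpihbp1+ cells, so Ednrb+ cells stood highest for both Pdgfb and Pdgfd.

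Pdgfra (chr5:75152292-75198215, plus strand), the receptor of mesenchymal progenitors and fibroblasts, was highest in fibroblasts. They held 523 and 647 CPM in the WT mice and 446 and 446 CPM in the Tubb3-/- mice, a mean of 515 ± 94.6 CPM (SD, n = 4). Mesothelial cells were 7.36-fold lower (log2 2.88, SE 0.25, edgeR adjusted p = 4.43e-10), at 39.3 and 43.6 CPM in the WT mice and 141 and 97.8 CPM in the Tubb3-/- mice. Pericytes, at 9.503 to 41.7 CPM, and smooth muscle cells, at 12.2 to 24.6 CPM, overlapped and the step between them did not pass. With the higher gates pericytes were below smooth muscle cells (log2 -1.27, edgeR adjusted p = 0.00056), and the step from mesothelial cells to pericytes was lost there (log2 0.61, adjusted p = 0.11) and without Tubb3-/- mouse 2 (log2 1.54, adjusted p = 0.064). The mesenchymal library excluded cells with surface PDGFRα from its MCAM+ fraction, and the part of this sorting in both levels was not tested. In the mesenchymal libraries alone, Pdgfra stood at 12.3 to 54.5 CPM in pericytes (15 UMIs) and 13.5 to 23.3 CPM in smooth muscle cells. In the whole-cell libraries alone, Pdgfra stood at 2.58 to 35.5 CPM in smooth muscle cells, and 1 of the 4 mice had any UMI in pericytes (14.3 CPM). The summed level of 5 fibroblast markers was 1795 CPM in pericytes and 2656 CPM in smooth muscle cells, against 10475 CPM in fibroblasts, and their part in these Pdgfra values was not tested. Endothelial and immune cells held 6.55 to 14.7 CPM between them, and epithelial cells had a mean of 6.61 CPM. At 2000 UMIs per cell, 49.1% to 64.1% of fibroblasts kept a Pdgfra UMI against 0.710% to 1.20% of epithelial cells, whose median depth was 15636 UMIs against 17482.5 in fibroblasts.

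Pdgfrb (chr18:61045150-61085061, plus strand), the receptor of mural cells, was highest in pericytes at 876 and 1428 CPM in the WT mice and 959.8 and 1406 CPM in the Tubb3-/- mice, a mean of 1168 ± 290.5 CPM (SD, n = 4). The spread between the mice of 1 genotype was wider than the distance between genotypes. At the higher gates, pericytes stood at 772 to 1106 CPM. Smooth muscle cells held 117 and 156 CPM in the WT mice and 155 and 148 CPM in the Tubb3-/- mice, 6.70-fold lower on the fitted scale (log2 2.74, SE 0.20, edgeR adjusted p = 4.44e-11). Fibroblasts held 70.3 and 49.3 CPM in the WT mice and 92.9 and 85.4 CPM in the Tubb3-/- mice, 1.93-fold below smooth muscle cells (log2 0.95, SE 0.18, edgeR adjusted p = 0.00011), and mesothelial cells held 22.6 to 48.8 CPM. Endothelial, immune and epithelial cells stood at 0 to 6.77 CPM. After thinning, a Pdgfrb UMI remained in 68.9% to 90.0% of pericytes, 20.7% to 27.1% of smooth muscle cells and 9.01% to 16.7% of fibroblasts.

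Pdgfrl (chr8:40926212-40990785, plus strand) encodes a secreted protein that resembles the ligand-binding part of a PDGF receptor and has no kinase. It was highest in fibroblasts at 91.9 and 73.3 CPM in the WT mice and 109 and 117 CPM in the Tubb3-/- mice. Smooth muscle cells held 28.8 and 30.8 CPM in the WT mice and 43.1 and 46.4 CPM in the Tubb3-/- mice, 2.67-fold lower (log2 1.42, SE 0.15, edgeR adjusted p = 9.42e-09), and in either lineage the Tubb3-/- mice were the 2 highest. Mesothelial cells, at 9.22 to 39.8 CPM, were below smooth muscle cells (log2 0.81, SE 0.20, edgeR adjusted p = 0.0022), while the step from mesothelial cells to pericytes, at 7.76 to 23.8 CPM, did not pass. With the higher gates it turned, pericytes being the higher (log2 -2.42, edgeR adjusted p = 4.41e-09).

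Both receptor genes were often found in the same fibroblast. UMIs of Pdgfra and Pdgfrb were together in 52.1% and 37.9% of fibroblasts of the WT mice and in 62.5% and 59.8% of those of the Tubb3-/- mice. The Tubb3-/- fibroblasts were also sequenced more deeply, with medians of 19924 and 18701.5 UMIs against 16718 and 14795, and these shares were not corrected for depth. Pdgfrb without Pdgfra was seen in 2.67% to 6.50% of fibroblasts and in 73.9% to 88.9% of pericytes. Smooth muscle cells carried Pdgfrb alone in 53.1% to 61.5% of cells and both receptors in 6.92% to 12.7%.

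Which cells carried each gene's UMIs in a lung also depended on how many cells of each kind there were. In the whole-cell libraries, fibroblasts held 58.0% of Pdgfra UMIs and 47.7% of Pdgfrl UMIs (means of 4 mice), although they held 14.0% of all UMIs. Endothelial cells held 40.5% of Pdgfb UMIs and 27.4% of Pdgfd UMIs with 7.097% of all UMIs. Pericytes, with 0.107% of all UMIs, held 5.03% of Pdgfrb UMIs, against 34.0% in fibroblasts and 7.19% in smooth muscle cells. For Pdgfc, 23.5% lay in immune cells. Cells that matched several gates held 37.8% to 62.6% of each gene's UMIs, so these shares are of the cells as gated. At the higher gates the immune share of Pdgfc was 62.8%, the endothelial share of Pdgfb 69.0%, and the pericyte share of Pdgfrb 12.2%.

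**Figure D3:**
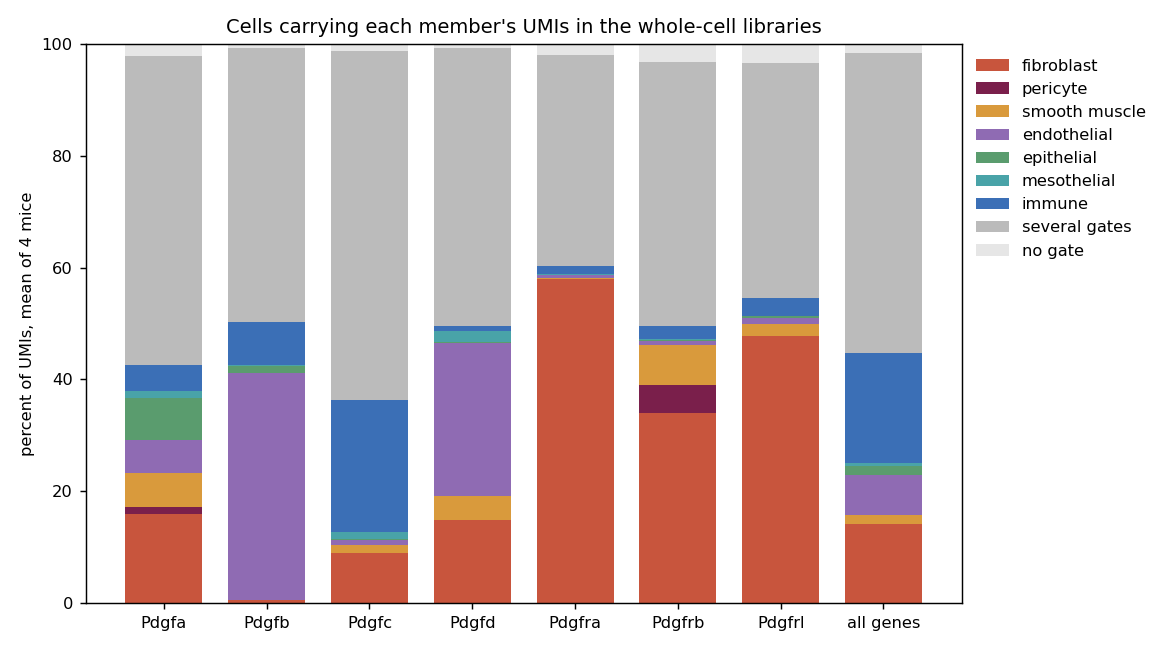
Percent of each gene's UMIs (y axis, mean of the 4 whole-cell libraries) carried by each lineage, by cells matching several gates (grey) and by cells matching none (light grey), with all genes in the bar on the right. Pdgfra (58.0%) and Pdgfrl (47.7%) lie largely in fibroblasts and Pdgfb in endothelial cells (40.5%), while the several-gate cells hold a large part of every bar.

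The comparison of Tubb3-/- with WT mice asks whether the PDGF genes differ in injured lungs without β-III tubulin. Of 49 combinations of gene and lineage, 39 passed the filter on low counts and were tested. None was called at an adjusted p of 0.05 by edgeR's quasi-likelihood test, against 0.424% of all gene and lineage combinations, and 16 of the 39 had an unadjusted p under 0.05, against 12.3%. The 4 mice did not overlap by genotype in 24 of the 39, 17 with both Tubb3-/- mice higher and 7 with both lower, against 42.8% over all genes. The median log2 difference was 0.24 over the 39. DESeq2 called 3 of the 39. The share of all genes that DESeq2 called is not given here, so its calls, here and below, stand without a background. Each edgeR p-value sets a difference against a spread estimated from only 2 mice a genotype, with information drawn from the other genes.

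**Figure D4:**
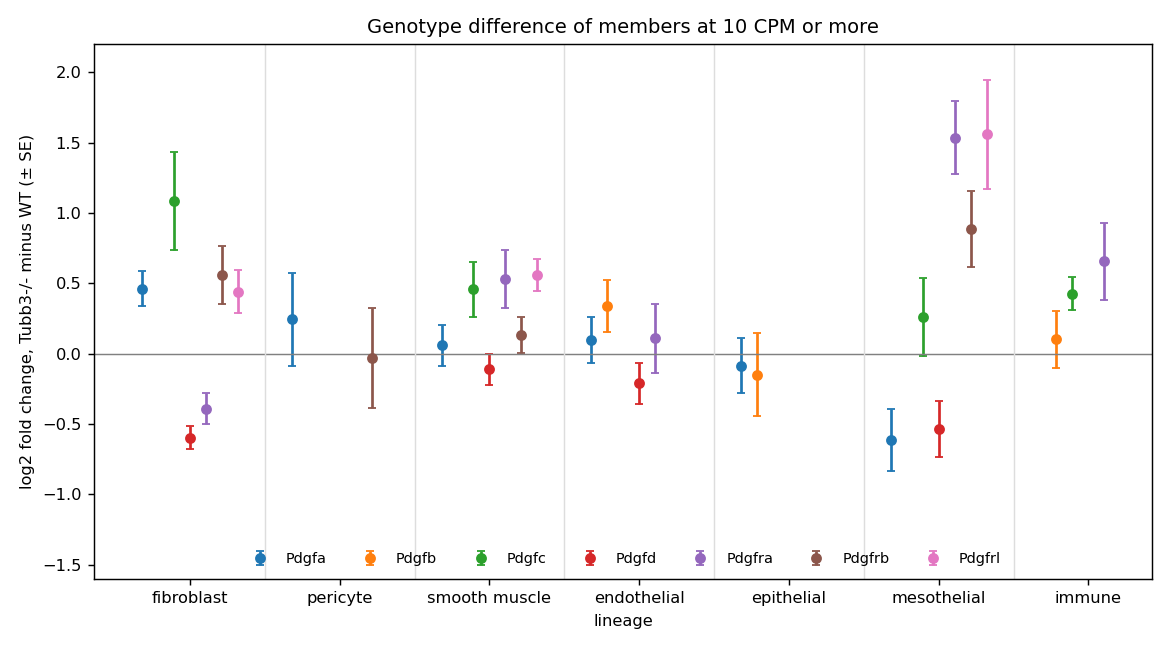
Fitted log2 fold change of Tubb3-/- over WT (y axis, points with SE bars from edgeR, 2 mice a genotype) for each gene with a mean of 10 CPM or more in a lineage (x axis). Mesothelial Pdgfrl (1.56) and Pdgfra (1.53) lie highest, Pdgfc is at 1.08 and Pdgfd at -0.60 in fibroblasts, and no point passed an adjusted p of 0.05.

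Fibroblasts showed the most differences without overlap. All 7 genes were separated by genotype there, 5 with both Tubb3-/- mice higher and 2 with both lower, where 50% of all 16210 genes tested were separated (25.1% higher, 24.9% lower). The separation of all 7 also held in the mesenchymal libraries alone. In the whole-cell libraries alone Pdgfa overlapped, at 38.1 and 27.1 CPM in WT and 37.4 and 34.5 CPM in Tubb3-/- mice. So did Pdgfc, at 14.3 and 3.25 CPM in WT and 15.3 and 11.8 CPM in Tubb3-/- mice, and Pdgfb. No gene of any kind was called in fibroblasts by edgeR (0%), while 6 of the 7 members had an unadjusted p under 0.05, against 19.8% of all genes. The ligand Pdgfd fell short of the threshold with the smallest adjusted p. Its levels, given above, were 57.6 and 62.2 CPM in WT and 40.6 and 38.9 CPM in Tubb3-/- mice (log2 -0.60, SE 0.08, edgeR adjusted p = 0.094). Pdgfc had 10.4 and 6.67 CPM in WT and 22.9 and 13.7 CPM in Tubb3-/- mice (log2 1.08, SE 0.35, edgeR adjusted p = 0.20). DESeq2 called both, at adjusted p of 0.0024 for Pdgfd and 0.032 for Pdgfc.

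For the other members no edgeR adjusted p was below 0.16. Pdgfra was lower in both Tubb3-/- mice, at 446 CPM in each, than in the WT mice, at 523 and 647 CPM (log2 -0.39, SE 0.11, edgeR adjusted p = 0.17). Pdgfa (log2 0.46, SE 0.13), Pdgfrb (0.56, SE 0.21) and Pdgfrl (0.44, SE 0.15) were higher in both Tubb3-/- mice, with edgeR adjusted p of 0.16, 0.24 and 0.22. Pdgfb was also higher in both Tubb3-/- mice, but at 1.07 to 2.72 CPM over the 4 mice its fold change is not given. The summed level of 5 smooth muscle markers in the fibroblast gate was 792 and 819 CPM in WT and 1661 and 1213 CPM in Tubb3-/- mice, and its part in these values was not tested. Over the 7 genes the median log2 difference was 0.46, against -0.01 over all genes. In the WT mouse 1, Pdgfrb and Pdgfrl stood closer to the Tubb3-/- mice than in WT mouse 2, and without it both were called (log2 0.91 and 0.68, adjusted p = 0.041 and 0.046), on the assumption that the lone WT mouse varies like the others.

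The makeup of the fibroblast gate is given by mouse, with no test. Cells with Cthrc1 alone, a gene of fibrotic fibroblasts, were 4.60% and 3.27% of fibroblasts in the WT mice (72 and 49 cells) and 13.6% and 9.21% in the Tubb3-/- mice (263 and 157 cells). Cells with Inmt alone, a gene of alveolar fibroblasts, were 48.8% and 62.1% in WT and 41.4% and 44.3% in Tubb3-/- mice. Pi16, a gene of adventitial fibroblasts, was alone in 51 and 20 cells of the WT mice (3.26% and 1.34%). In the Tubb3-/- mice it was alone in 50 and 55 cells (2.58% and 3.23%). The rest of the fibroblasts carried UMIs of more than 1 of these genes and lie in none of the 3 gates. The members were also compared within these 3 gates (the plot of fibroblast gates).

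**Figure D5:**
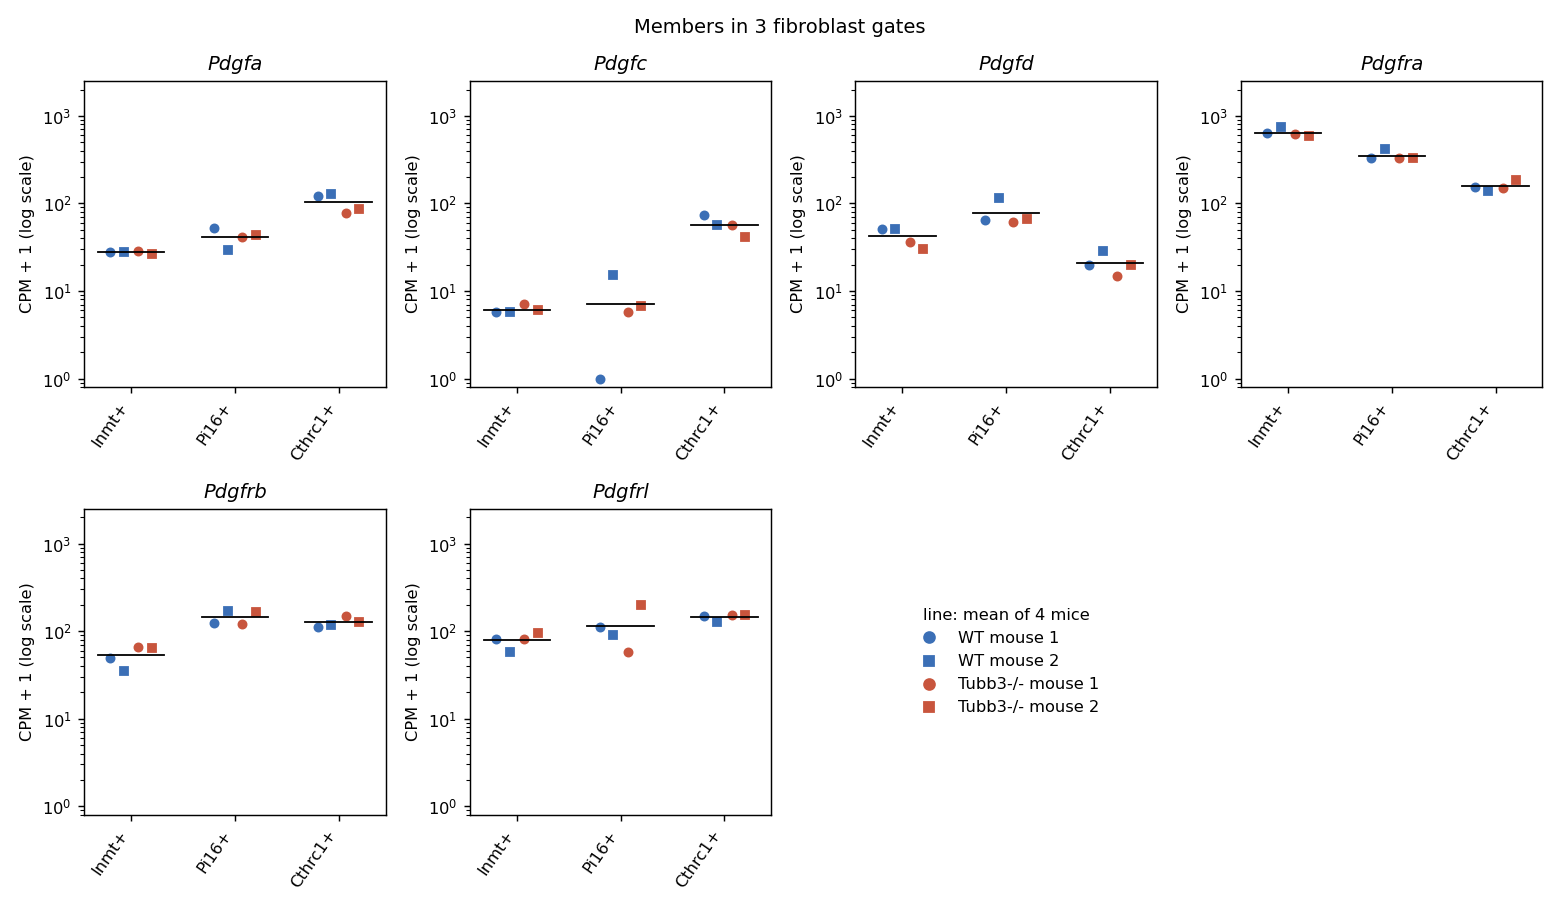
CPM + 1 on a log scale (y axis) of 6 members in fibroblasts with UMIs of only Inmt, only Pi16 or only Cthrc1 (x axis), 1 point per mouse (blue WT, red Tubb3-/-) and a line at the mean of 4. Pdgfa and Pdgfc are highest in Cthrc1+ cells, Pdgfra in Inmt+ cells and Pdgfd in Pi16+ cells.

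The gates differed from each other in most members, which is given here as description. Pdgfra stood at 581 to 752 CPM in Inmt+ cells, 326 to 422 CPM in Pi16+ cells and 138 to 186 CPM in Cthrc1+ cells, without overlap. Pdgfc ran the other way, at 4.69 to 6.05 CPM in Inmt+ cells and 40.1 to 72.2 CPM in Cthrc1+ cells. Pdgfa likewise stood at 25.4 to 27.9 CPM against 76.5 to 128 CPM. Cthrc1+ cells thus held more of both PDGFRα ligands and less of their receptor than Inmt+ cells in every mouse. Pdgfrb stood at 34.2 to 64.6 CPM in Inmt+ cells and 111 to 149.8 CPM in Cthrc1+ cells, and Pdgfrb without Pdgfra was seen in 1.18% to 3.14% and 14.0% to 27.8% of their cells. Pdgfd was highest in Pi16+ cells, at 60.7 to 114 CPM, against 29.1 to 50.1 CPM and 13.7 to 27.6 CPM.

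Between genotypes, no member was called within any of the 3 gates (background 0% in Inmt+, 0% in Pi16+ and 0.205% in Cthrc1+ cells). By edgeR an unadjusted p under 0.05 was seen for 2 members in Inmt+ (17.8% of genes), 0 in Pi16+ (5.97%) and 1 in Cthrc1+ cells (9.26%). In Inmt+ cells 3 members were higher and 3 lower without overlap (29.2% and 20.5% of genes, 49.7% in all), and DESeq2 called Pdgfd in Inmt+ cells. Without WT mouse 1, edgeR called Pdgfrb and Pdgfrl in Inmt+ cells (adjusted p = 0.0051 and 0.024), and without WT mouse 2 Pdgfd (adjusted p = 0.039). Pdgfd in Inmt+ cells was 50.1 and 49.4 CPM in the WT mice and 35.7 and 29.1 CPM in the Tubb3-/- mice (log2 -0.65, SE 0.13, edgeR adjusted p = 0.12), a difference of the size seen in all fibroblasts. Pdgfc differed little in Inmt+ cells, at 4.69 and 4.70 CPM in the WT mice and 6.05 and 5.07 CPM in the Tubb3-/- mice, and in Cthrc1+ cells the values were 72.2 and 55.2 CPM in the WT mice and 56.1 and 40.1 CPM in the Tubb3-/- mice (log2 -0.37). Pdgfa, higher in the Tubb3-/- fibroblasts as a whole, showed a log2 difference of -0.03 in Inmt+ cells. In Cthrc1+ cells it was lower in both Tubb3-/- mice, at 119 and 128 CPM in the WT mice and 76.5 and 85.8 CPM in the Tubb3-/- mice (log2 -0.57, SE 0.14, edgeR adjusted p = 0.24). How far the larger Cthrc1+ share bears on the values over all fibroblasts was not tested.

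In smooth muscle cells none of the 7 members was called by edgeR or DESeq2, against 0.891% of all genes by edgeR. Genotypes did not overlap for 3 members higher and 1 lower in Tubb3-/- mice, against 23.9% and 16.3% of genes (40.2% in all), and 3 members had an unadjusted p under 0.05 (10.6%). Pdgfrl came closest, at 28.8 and 30.8 CPM in the WT mice and 43.1 and 46.4 CPM in the Tubb3-/- mice (log2 0.56, SE 0.11, edgeR adjusted p = 0.054), and without Tubb3-/- mouse 1 it was called (adjusted p = 0.044). The 5 fibroblast markers summed to 2061 and 1719 CPM in the WT smooth muscle cells and to 3013 and 3481 CPM in those of Tubb3-/- mice, and their part in the Pdgfrl and Pdgfra values was not tested. Pdgfra (log2 0.53, SE 0.20) and Pdgfc (log2 0.46, SE 0.20) had adjusted p of 0.37 and 0.44. The median log2 difference was 0.13 over the 7 members and 0.00 over all genes. In pericytes only Pdgfa (log2 0.24, SE 0.33) and Pdgfrb (log2 -0.03, SE 0.36) could be tested, none of the 2 was called (background 0%) and neither had an unadjusted p under 0.05 (7.4% of genes). Only Pdgfa was separated by genotype, both Tubb3-/- mice being higher, against 23.4% of genes in that direction and 39% in either. The kinds of library gave opposite directions for Pdgfa. The whole-cell libraries gave 200.3 and 228 CPM in the WT mice and 584 and 664 CPM in the Tubb3-/- mice (log2 1.35, edgeR adjusted p = 0.95, 66 UMIs), while the mesenchymal libraries gave 474 and 349 CPM in the WT mice and 397 and 259 CPM in the Tubb3-/- mice (log2 -0.31, edgeR adjusted p = 0.96, 158 UMIs). With SEs of 0.33 and 0.36, differences of the size seen in fibroblasts were not detectable in these 91 cells.

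In endothelial cells, the lineage with the largest share of genes called (1.49%), no member was called, and none had an unadjusted p under 0.05 (14.9% of genes). For Pdgfb, WT mouse 1 stood close to the Tubb3-/- mice at 219 CPM and WT mouse 2 below all others at 144 CPM (log2 0.34, SE 0.19, edgeR adjusted p = 0.45). Without WT mouse 1 the difference was called (log2 0.67, adjusted p = 0.020), so 1 mouse decided it. Pdgfd was lower in both Tubb3-/- mice, at 175 and 178 CPM, than in the WT mice, at 232 and 179.7 CPM, the nearest pair lying close together (log2 -0.21, SE 0.14, edgeR adjusted p = 0.55). Separation by genotype held for 1 member upward and 1 downward, against 21.7% and 23.6% of genes (45.4% in all). In epithelial cells 3 members were tested, none was called by either tool (background 0%), 1 had an unadjusted p under 0.05 (5.11% of genes), 1 was separated by genotype (33.8%), and Pdgfa (log2 -0.09) and Pdgfb (log2 -0.15) lay near 0.

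In immune cells no member was called (background 0%), 1 had an unadjusted p under 0.05 (8.93% of genes), and 3 were higher and 1 lower without overlap, against 20.1% and 21.7% of genes (41.7% in all). Pdgfc stood at 18.6 and 19.5 CPM in the WT mice and 26.6 and 24.2 CPM in the Tubb3-/- mice (log2 0.43, SE 0.12, edgeR adjusted p = 0.47). Pdgfra stood at 9.11 and 6.55 CPM in the WT mice and 14.7 and 10.0 CPM in the Tubb3-/- mice (log2 0.65, SE 0.27, edgeR adjusted p = 0.57), levels at which 1.64% to 2.01% of immune cells kept a UMI after thinning to 2000. The 5 fibroblast markers summed to 232 and 189 CPM in the WT immune cells and to 330 and 304 CPM in the Tubb3-/- immune cells, and their part in the Pdgfra values was not tested. The median log2 difference of the members was 0.40, against 0.00 over all genes.

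The largest fitted genotype differences among members at 10 CPM or more were in mesothelial cells. Pdgfra was 39.3 and 43.6 CPM in the WT mice and 141 and 97.8 CPM in the Tubb3-/- mice, both Tubb3-/- mice standing above both WT mice (log2 1.53, SE 0.26, edgeR adjusted p = 0.063), and DESeq2 called it (adjusted p = 0.0073). Pdgfrl, at 14.4 and 9.22 CPM in the WT mice and 39.8 and 26.7 CPM in the Tubb3-/- mice, and Pdgfrb, at 26.2 and 22.6 CPM in the WT mice and 48.8 and 39.6 CPM in the Tubb3-/- mice, were also higher in both (log2 1.56, SE 0.39 and 0.88, SE 0.27, edgeR adjusted p = 0.15 and 0.23). Without Tubb3-/- mouse 2, Pdgfra and Pdgfrl were called (adjusted p = 0.0014 and 0.022). The ligands Pdgfa and Pdgfd were lower in both, with log2 -0.61 (SE 0.22) and -0.54 (SE 0.20). None of 6 members tested was called by edgeR (background 0.32%), 5 had an unadjusted p under 0.05 (12.6% of genes), and 3 were higher and 2 lower without overlap (21.1% and 21.2% of genes, 42.3% in all).

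Pdgfra was the 1 member for which a difference of the genotype effect between 2 lineages passed the test. Of 147 comparisons of the effect between 2 lineages 1 was called, against 0.0474% over all genes and 0.486% in the contrast of fibroblasts with mesothelial cells, and 30 had an unadjusted p under 0.05, against 6.37%. The genotype effect on Pdgfra in fibroblasts minus that in mesothelial cells was -1.93 on the log2 scale (SE 0.33, edgeR adjusted p = 0.011). Other markers moved beside it in the mesothelial gate, and their part was not tested. The summed level of 5 fibroblast markers was 3784 and 4651 CPM in WT and 6859 and 5332 CPM in Tubb3-/- mice, and that of 5 mesothelial markers 2605 and 3048 against 1684 and 2081 CPM. At the higher gates, with 8 or more Msln UMIs, mesothelial Pdgfra was 13.8 and 13.9 CPM in the WT mice and 17.3 and 17.7 CPM in the Tubb3-/- mice and the difference between lineages was -0.71 (adjusted p = 0.56). The call was also lost at a gate of 2 UMIs (log2 -1.31, adjusted p = 0.073), in the whole-cell libraries alone (-1.58, adjusted p = 0.87) and without Tubb3-/- mouse 1 (-1.61, adjusted p = 0.20).

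At the same higher gates the other mesothelial values also came closer together. Pdgfd was 202 and 206 CPM in the WT mice and 184 and 223 CPM in the Tubb3-/- mice, Pdgfrb 7.07 to 11.7 CPM over the 4 mice and Pdgfrl 4.27 to 5.99 CPM. Mesothelial cells with more Msln thus held Pdgfd at the level of endothelial and smooth muscle cells in every mouse and little of any receptor.

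Over all cells of the whole-cell libraries, where fewer cells of a type and less RNA per cell cannot be told apart, none of the 7 members was called by edgeR (0% of 18411 genes), and 3 had an unadjusted p under 0.05 (15.8% of genes). Pdgfb was 26.7 and 26.8 CPM in the WT mice and 43.4 and 48.7 CPM in the Tubb3-/- mice (log2 0.79, SE 0.08, edgeR adjusted p = 0.14), and without WT mouse 2 it was called (adjusted p = 0.042). The share of endothelial cells among the cells of these libraries was 8.45% and 11.8% in WT and 12.7% and 14.1% in Tubb3-/- mice, and its part in the Pdgfb values was not tested. Pdgfrl was 22.8 and 19.2 CPM against 31.3 and 33.9 CPM (log2 0.64, SE 0.12, edgeR adjusted p = 0.17), and DESeq2 called it and Pdgfb. Pdgfrb was 30.9 and 24.6 CPM against 38.3 and 37.9 CPM (log2 0.47, SE 0.14, edgeR adjusted p = 0.25). In all, 4 members were higher in both Tubb3-/- mice and 0 were lower in both, where 22.5% of genes were higher and 24.8% lower (47.4% in all). Pdgfc, Pdgfd and Pdgfra showed log2 differences of 0.05 to 0.16.

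Beyond the members, 41 genes that act with PDGF were counted: proteases and convertases that release the ligands, proteins that bind them, adaptors and effectors, phosphatases and ligases that end the signal, and feedback inhibitors. In each lineage 27 to 41 of them were tested, and none was called lower in Tubb3-/- mice. Sparc, whose secreted product binds PDGF dimers that hold the B chain, was the only one called higher, in 2 lineages. That was 1 of 38 genes tested in endothelial cells and 1 of 38 in smooth muscle cells. Of all genes, 1.49% and 0.891% were called in these lineages. In endothelial cells Sparc rose from 1019 and 943 CPM to 1666 and 1646 CPM (log2 0.76, SE 0.10, edgeR adjusted p = 0.0092). In smooth muscle cells it rose from 2138 and 1902 CPM to 2981 and 3520 CPM (log2 0.65, SE 0.12, edgeR adjusted p = 0.042). The endothelial call held without each mouse in turn (adjusted p = 0.0016 to 0.034) and was lost with all lineages in 1 fit (adjusted p = 0.27). The smooth muscle call was lost without WT mouse 1, WT mouse 2 or Tubb3-/- mouse 2 (adjusted p = 0.17, 0.25 and 0.16), at the higher gates (0.079) and in either kind of library alone (0.16 and 0.062). The fibroblast markers of the smooth muscle gate, which also stood higher in both Tubb3-/- mice, are given above, and in the endothelial gate they summed to 322 and 395 CPM in WT and 503 and 416 CPM in Tubb3-/- mice. Their part in the Sparc values was not tested. In fibroblasts 0 of 41 were called, 10 had an unadjusted p under 0.05 where 19.8% of all genes did, and the median log2 was -0.01, as over all genes. The 6 feedback inhibitors tested in mesothelial cells had a median log2 of 0.55 and in fibroblasts the 7 had -0.01, with 0 called in either.

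The genes most like each member over the 28 sums (7 lineages in 4 mice) were ranked by Pearson's r on log2(CPM + 1) among 12655 genes. These sums share libraries, depth and mice, and the values are a description. Pdgfrb was most like Arhgap42 (r = 0.98), Pdgfra like the matrix protease gene Mmp2 (0.97), Pdgfrl like the collagen crosslinking gene Lox (0.97) and Pdgfb like Smagp (0.96). Pdgfa and Pdgfd had Slc6a9 and Fibin (0.93 each), and Pdgfc had Mpp6 (0.89).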

How the data were processed

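Single-cell 3' RNA libraries of 2 WT and 2 Tubb3-/- mice were analysed from the deposited UMI counts per gene and cell, 1 matrix for each mouse in each of 2 pools (8 in all), which the authors had made with Cell Ranger 7.1.0 on mm10, per the submitters' processing notes, and split by sample tag. Strand settings are not given in the sources used here. The 2 tag libraries of the series were not used, and no column of other samples was present (0 unused). Cells with 200 to 7500 genes and at most 15% mitochondrial UMIs were kept (30860 of 32121). Scrublet (scanpy 1.11.5) scored doublets per pool. Its automatic threshold marked 2 of 14160 whole-lung cells, so a score of 0.25 was set after the scores were seen, which removed 269 (1.90%) and 499 (2.99%) cells. No barcode was shared within a pool, and at most 9 were shared by a library of each pool. Cells were gated by the stated genes, and UMIs were summed per mouse and lineage.

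The 7 members, the gates and the 41 further genes were chosen with earlier results of these data known. The members were described in every lineage, a fold change was given where the mean reached 10 CPM, and other genes were named when called, as were the 3 genes most like each member.

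The tests were edgeR's quasi-likelihood fits (version 4.0.16, R 4.3.3) of these sums after filterByExpr and TMM scaling, in 1 fit per lineage for genotype and 1 fit of 28 sums with the mouse as a block for lineages and their interaction, at a Benjamini-Hochberg adjusted p of 0.05 over all genes of the fit. Both libraries of a mouse came from 1 lung and count as 1 replicate. The scripts were tested on simulated data. Alternatives were DESeq2 1.42.0, other scaling and filters, a replicate block, each library alone, doublets kept, a mitochondrial limit of 10%, a gate of 2 UMIs, and each mouse left out. Gates of 3 to 10 UMIs were added after seeing the data, and in these a cell passing both the Higd1b and Myh11 gates counted as a pericyte. Levels of 0 and shares carry counting error only. Promoter windows and start sites are from RefSeq (GRCm38.p6). Of the 7 members, 3 had a window without annotated exons. Python 3.11.15, numpy 2.4.6 and pandas 2.3.3 were used.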

Additional observations from a re-analysis of the deposited data

Results flagged for a closer look

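The genotype difference of Pdgfra differed between fibroblasts and mesothelial cells in the test of the difference itself, with a log2 of -1.93 (SE 0.33, edgeR adjusted p = 0.011). Fibroblast Pdgfra was 523 and 647 CPM in the WT mice and 446 and 446 CPM in the Tubb3-/- mice, and mesothelial Pdgfra was 39.3 and 43.6 CPM in the WT mice and 141 and 97.8 CPM in the Tubb3-/- mice. The genotypes did not overlap in either lineage and lay in opposite order. Over the alternatives the adjusted p ran from 2.54e-08 without a filter on low counts to 0.87 in the whole-cell libraries alone. The summed fibroblast and mesothelial markers of the mesothelial gate, given above, also differed between the genotypes, and their part was not tested.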

How the results depend on the processing

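Of the recomputed genotype differences, 603 kept direction and call, 33 passed the threshold and 45 turned. Of the steps between lineages, 355 kept both, 25 lost the call, 4 gained it and 19 turned, and the count of called pairs was 112 to 114 with a mouse left out. Called genotype differences within lineages (0) became 3 with DESeq2, 2 at a mitochondrial limit of 10%, 1 without TMM, 4 without a filter, 4 with all lineages in 1 fit and 0 to 3 with a mouse left out. Interactions called (1) became 5 without a filter, 0 at the gate of 2 UMIs, 0 at the higher gates, 0 in whole-cell libraries and 0 to 1 without a mouse. Over whole lung (0), DESeq2 gave 2 and leaving out a mouse 0 to 1. In fibroblast gates (0) they gave 1 and 0 to 2. The Pdgfra interaction (-1.93) lost its call at -1.31, -0.71 and -1.58. Without a mouse it was -2.20 to -1.61, the call being lost without Tubb3-/- mouse 1 (-1.61) and kept without each other mouse. Causes were not tested.

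The labels give no shared litter or day, so replicate numbers are names. Deviations of same-numbered mice correlated at 0.06 to 0.27 over the 7 lineages. With replicate number as a block, 4 genotype differences were called (fibroblast Pdgfa, Pdgfc and Pdgfd, smooth muscle Pdgfrl), 1 over whole lung (Pdgfb) and 1 in fibroblast gates (Pdgfd in Inmt+ cells).

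Leaving out WT mouse 1 called fibroblast Pdgfrb and Pdgfrl, endothelial Pdgfb and both receptors in Inmt+ cells. Without WT mouse 2 whole-lung Pdgfb and Inmt+ Pdgfd were called, without Tubb3-/- mouse 1 smooth muscle Pdgfrl, and without Tubb3-/- mouse 2 mesothelial Pdgfra and Pdgfrl. The lone mouse is assumed to vary like the rest.

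Genotype differences (log2) that turned were, in the mesenchymal libraries alone, pericyte Pdgfa -0.31 and Pdgfrb 0.076, endothelial Pdgfa -0.13, epithelial Pdgfb 0.061, Pdgfc -0.043 in mesothelial and -0.16 in immune cells, Inmt+ Pdgfa 0.067, Cthrc1+ Pdgfc 0.00063 and Pi16+ Pdgfd 0.70. In the whole-cell libraries they were smooth muscle Pdgfa -0.089 and Pdgfrb -0.075, endothelial Pdgfra -0.034, Cthrc1+ Pdgfra -0.0079 and Pdgfrl -0.19, and Pi16+ Pdgfrb 0.084 and Pdgfrl -0.12. At the gate of 2 UMIs they were endothelial Pdgfa -0.047 and Pdgfra -0.17, epithelial Pdgfa 0.17 and Pdgfb 0.65, and immune Pdgfb -0.061. At the higher gates they were endothelial Pdgfa -0.11 and Pdgfra -0.37, epithelial Pdgfa 0.15 and Pdgfb 0.75, immune Pdgfb -0.11 and mesothelial Pdgfd 0.0048. Without TMM, pericyte Pdgfrb was 0.040. With a mouse left out, ranges across 0 were smooth muscle Pdgfa -0.13 to 0.24 and Pdgfrb -0.032 to 0.30, epithelial Pdgfb -0.38 to 0.024, immune Pdgfb -0.12 to 0.40, mesothelial Pdgfc -0.086 to 0.62, endothelial Pdgfra -0.018 to 0.24, pericyte Pdgfrb -0.29 to 0.27, whole-lung Pdgfc -0.097 to 0.18 and Pdgfd -0.045 to 0.36, Inmt+ Pdgfa -0.11 to 0.054, and Pi16+ Pdgfa -0.37 to 0.60, Pdgfrb -0.24 to 0.15 and Pdgfrl -0.79 to 0.92.

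Steps between lineages (log2) that turned were Pdgfd endothelial minus smooth muscle (0.49 in whole-cell libraries, 0.0074 without TMM), Pdgfd smooth muscle minus mesothelial (-0.30 in whole-cell libraries), Pdgfa epithelial minus smooth muscle (-0.17 at the higher gates) and Pdgfc smooth muscle minus fibroblast (-0.095 at 2 UMIs, -0.18 at the higher gates, -0.026 to 0.39 without a mouse). Pdgfra pericyte minus smooth muscle was -1.98 in whole-cell libraries, -1.19 at 2 UMIs, -1.27 at the higher gates, -0.25 at the mitochondrial limit of 10% and -0.14 to 0.45 without a mouse. Pdgfra immune minus epithelial was -0.053 at 2 UMIs, and endothelial minus immune 0.14 without TMM and -0.24 to 0.12 without a mouse. Pdgfrl mesothelial minus pericyte was -0.65, -0.94 and -2.42 in whole-cell libraries, at 2 UMIs and at the higher gates. With 15 to 36 pericytes a mouse and 2 mice a genotype, small differences were beyond reach.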

Other observations

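Among the genes that act with PDGF, 4 ligand-binding and co-receptor genes were tested in each lineage but fibroblasts, where 5 were. The list includes Sparc, called in endothelial and smooth muscle cells. Its median log2 difference was 0.64 in endothelial cells, 0.61 in mesothelial cells, 0.36 in smooth muscle cells and 0.30 in immune cells. The median was 0.20 in epithelial cells, -0.01 in pericytes and 0.03 in fibroblasts. An unadjusted p under 0.05 by edgeR was seen for 4 of these genes in endothelial cells (14.9% of all genes), 2 in mesothelial cells (12.6%), 2 in smooth muscle cells (10.6%) and 3 in immune cells (8.93%). It was seen for 1 in epithelial cells (5.11%), 0 in pericytes (7.4%) and 1 in fibroblasts (19.8%). The 6 ligand-activating proteases and convertases had a median of -0.33 in fibroblasts, with 0 called and 2 at an unadjusted p under 0.05 (19.8% of all genes), and adaptors and effectors stayed between -0.12 and 0.03 in every lineage but pericytes (-0.46, 11 genes). None of these medians was tested.

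In mesothelial cells, UMIs of Pdgfra and Pdgfrb were found together in 8.47% and 5.62% of cells of the WT mice and in 24.7% and 17.3% of those of the Tubb3-/- mice. At the higher gates the shares were 4.55% and 2.54% against 6.85% and 5.38%. These shares were not corrected for depth.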
